A study of Rattus norvegicus with 6 samples.

Results

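A set of 10 genes that mark blood vessel endothelium, chosen by symbol, was followed in RNA sequencing of rat chondrosarcoma (RCS) cells and rat rib tissue. All 10 were found, each as 1 entry among 27217 genes of the table. They are the receptor genes Kdr, Flt1, Tek, Tie1 and Eng, the junction genes Cdh5 and Pecam1, the surface sialomucin gene Emcn, and Egfl7 and Vwf, whose products are secreted. The first group was 3 libraries of RCS cells, a single established line grown from a rat chondrosarcoma that keeps many features of cartilage cells. The second was 3 libraries of neonatal rib, a whole tissue that can hold cartilage, bone, muscle, marrow and vessels. No allele, agent or treatment is named for either group, and the sources used here do not give the strain or any pooling of animals. The design text calls the 3 replicates of each group biological, without naming cultures or animals, so p-values measure the spread between these libraries only.

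Endothelial cells line vessels, and cartilage is for the most part a tissue without vessels, which enter it where it turns to bone. VEGF family ligands act on the tyrosine kinase receptors encoded by Kdr and Flt1, and angiopoietins act on the one encoded by Tek, next to its relative Tie1. VE-cadherin, the Cdh5 product, and PECAM1 hold neighbouring endothelial cells together, and endoglin, the Eng product, is a co-receptor for BMP9 and TGF-beta ligands. EGFL7 is a secreted protein of the vessel wall, and von Willebrand factor is a clotting protein that endothelial cells and megakaryocytes store and release.

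Levels are given as log2(normalized count + 1), where normalized counts are reads scaled by 1 factor for each library. Gene length does not enter, so levels are compared between libraries, and differences in level between genes are not interpreted. Differences are RCS cells minus rib tissue on that scale, with the limma standard error (SE), and calls were made at an adjusted p (Benjamini-Hochberg) below 0.05 over all 16809 tested genes. The table lists 0 wherever the normalized count was no more than 1. The RCS libraries held an estimated 6000000 to 8520000 reads on genes, and the rib libraries 5320000 to 7490000. The cartilage gene Col2a1 stood at 13.40 to 14.04 in the RCS libraries and 15.76 to 16.78 in the rib libraries. Its difference of -2.62 was called (limma adjusted p = 0.000102). Col9a1 stood at 13.77 to 14.11 and 13.82 to 14.59, and its difference of -0.19 was not called. Of 8 chondrocyte markers, Matn1 and Comp were called above rib tissue, Col2a1 and Col11a1 below it, and 4 were not called. Quantile normalization put 6 above and 1 below. None of the 8 was listed at 0 in a whole group. Rib tissue also carried markers of skeletal muscle, macrophages and pericytes, given beside the results they touch.

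The 10 genes fell into 3 patterns. Cdh5, Kdr, Tie1 and Emcn were listed at 0 in every RCS library and were high in rib tissue. Eng, Pecam1, Tek and Flt1 were detected in RCS cells at a small part of their rib level. Egfl7 and Vwf stood at 255 to 601 normalized counts in every library of both groups. In limma, 9 of 10 genes were lower in RCS cells, 0 were higher and Vwf was not called, where 43.6% of all tested genes were lower, 32.9% higher and 76.5% called in either direction. All rib libraries lay above all RCS libraries for 9 of 10 genes, against 44.5% of tested genes. The median difference was -6.91 over the 10 genes and -0.15 over all tested genes. With the 4 genes listed at 0 placed at their limit of 1 normalized count, the median of the 10 was -6.41. All 10 passed the filter on low values, 4 of them through rib tissue alone. Those 4 could not have come out higher in RCS cells. Their listed 0 also leaves no spread among the RCS libraries, so no p-value is given for them. Of all tested genes, 11.6% were listed at 0 in every RCS library and above 0 in every rib library. In bulk samples, fewer cells of a type and less RNA per cell cannot be told apart.

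**Figure D1:**
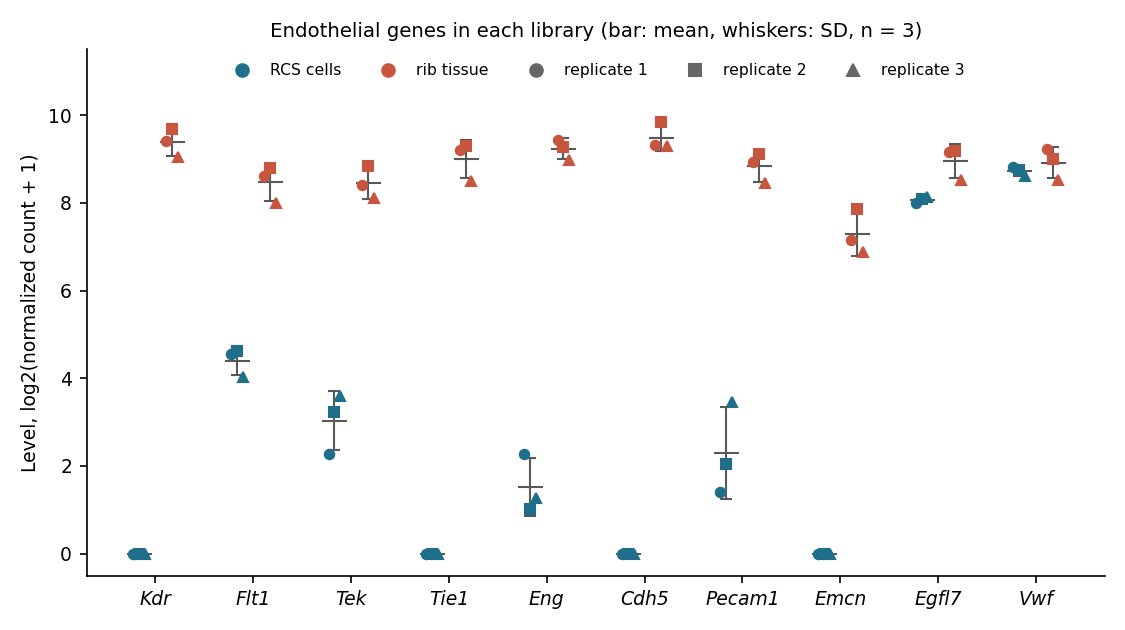
Level of each of the 10 endothelial genes, as log2(normalized count + 1), in 3 RCS libraries (blue) and 3 rib libraries (red), with marker shape for the replicate number, the group mean as a bar and the SD as whiskers. The 2 groups are far apart for the first 8 genes, 4 of which sit at 0 in RCS cells, close for Egfl7 and overlapping for Vwf.

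ETS factors bind short sites with a purine-rich core and are known regulators of endothelial genes. The bases before the start sites were therefore searched for those of the 10 genes with a promoter entry. RefSeq (GRCr8) promoter entries matched Kdr, Flt1, Tie1, Eng, Emcn and, with 2 start sites, Egfl7. The 250 bases before each start were scanned on both strands for AGGAAG and CCGGAA, whose matches in these entries do not overlap. At least 1 of these strings was found in 6 of 7 entries, where 38.4% of 33469 entries of that length hold one. These 6 entries cover the 6 genes searched, and no share over all genes was computed. AGGAAG was found in 5 of 7 entries (29.5% of all) and CCGGAA in 1 (12.6% of all). The string GATAAG, known from a family of blood and vessel transcription factors, was in 0 of 7 (6.18% of all). With so low a share over all entries, 0 of 7 says little, and other spellings of that site were not searched. A match is a description of letters, not a bound site. The entries below are shown because they come from genes of all 3 patterns in RCS cells: Egfl7, which was well detected, with both start sites, Flt1, which was low, and Tie1 and Kdr, which were listed at 0. Matches are in capitals and each run ends at the base before the start site.
Egfl7, first start, chr3:29805381-29805630, plus strand: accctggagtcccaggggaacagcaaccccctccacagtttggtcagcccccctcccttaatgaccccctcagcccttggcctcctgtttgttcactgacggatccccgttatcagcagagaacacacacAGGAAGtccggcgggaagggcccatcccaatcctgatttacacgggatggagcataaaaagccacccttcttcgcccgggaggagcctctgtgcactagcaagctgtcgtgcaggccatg
Egfl7, second start, chr3:29808051-29808300, plus strand: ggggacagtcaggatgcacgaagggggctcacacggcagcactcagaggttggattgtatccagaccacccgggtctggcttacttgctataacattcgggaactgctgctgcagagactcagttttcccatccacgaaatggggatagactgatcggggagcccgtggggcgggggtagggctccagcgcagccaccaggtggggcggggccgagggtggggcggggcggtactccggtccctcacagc
Flt1, chr12:12333180-12333429, plus strand: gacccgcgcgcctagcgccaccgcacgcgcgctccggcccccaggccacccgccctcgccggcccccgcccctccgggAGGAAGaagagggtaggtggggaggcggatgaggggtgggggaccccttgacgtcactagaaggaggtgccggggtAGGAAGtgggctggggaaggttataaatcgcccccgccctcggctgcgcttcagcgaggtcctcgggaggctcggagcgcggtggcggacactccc
Tie1, chr5:137304982-137305231, minus strand: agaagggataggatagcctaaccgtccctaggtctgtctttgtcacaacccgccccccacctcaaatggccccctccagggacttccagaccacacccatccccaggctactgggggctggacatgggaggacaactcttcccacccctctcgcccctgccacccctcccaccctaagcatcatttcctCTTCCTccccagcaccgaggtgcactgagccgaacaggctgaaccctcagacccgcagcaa
Kdr, chr14:32571813-32572062, plus strand: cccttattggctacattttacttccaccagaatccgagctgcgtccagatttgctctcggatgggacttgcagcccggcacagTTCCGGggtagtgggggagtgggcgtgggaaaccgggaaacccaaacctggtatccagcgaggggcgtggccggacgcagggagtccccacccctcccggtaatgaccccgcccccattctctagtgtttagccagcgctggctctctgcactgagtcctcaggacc
The first Egfl7 start has AGGAAG beginning 120 bases before it and the second has neither string. Flt1 has AGGAAG at 172 and 96 bases before its start, Tie1 its reverse complement at 61, and Kdr the reverse complement of CCGGAA at 167. The table does not separate reads of the 2 Egfl7 starts.

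Kdr and Flt1 encode the VEGF receptors VEGFR2 and VEGFR1. VEGFR2 carries most of the VEGF signal in endothelial cells, while VEGFR1 binds the ligand tightly and limits what reaches VEGFR2. Kdr (ENSRNOG00000046829) was at 9.41, 9.68 and 9.04 in rib tissue replicates 1, 2 and 3 and was listed at 0 in all 3 RCS libraries. In reads, the rib values correspond to about 897, 800 and 525. Flt1 (ENSRNOG00000000940) was at 4.56, 4.62 and 4.02 in RCS cells against 8.60, 8.79 and 8.0 in the rib. The groups did not overlap, and the RCS mean was 5.67% of the rib mean in normalized counts. Flt1 was thus the only one of the 8 strongly lower genes with more than 20 reads in every RCS library, at about 41.6, 45.5 and 21.4. The Flt1 difference was -4.06 (SE 0.25), a 16.71-fold lower level in RCS cells (limma adjusted p = 1.8e-06).

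Tek and Tie1 encode the angiopoietin receptor TIE2 and the related receptor TIE1, which binds no angiopoietin tightly by itself and modulates TIE2. Tek (ENSRNOG00000008587) was at 2.28, 3.22 and 3.59 in RCS cells against 8.41, 8.85 and 8.10 in the rib, a difference of -5.42 (SE 0.35, limma adjusted p = 2.45e-06). Its RCS values rested on about 7.09, 16.0 and 15.6 reads. Tie1 (ENSRNOG00000020173) was at 9.20, 9.30 and 8.5 in rib tissue and listed at 0 in all 3 RCS libraries. Tek was thus detected in every RCS library, though at few reads, and a listed 0 for Tie1 still allows up to 1.93 reads in a library. Both genes were well detected in every rib library.

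Eng (ENSRNOG00000050190) was at 2.27, 1.03 and 1.27 in RCS cells, values that rest on about 7.0, 2.0 and 2.0 reads. In rib tissue it was at 9.44, 9.28 and 8.97. The difference was -7.71 (SE 0.33, limma adjusted p = 2.78e-07), and the RCS mean was 0.345% of the rib mean in normalized counts. With so few reads in RCS cells, the size of this difference depends on the pseudocount, at -6.44 with a pseudocount of 5.

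Among the junction genes, Cdh5 (ENSRNOG00000013324) was at 9.32, 9.84 and 9.29 in rib tissue and listed at 0 in all 3 RCS libraries. Pecam1 (ENSRNOG00000043391), which is also made by platelets and some leukocytes, was at 1.40, 2.04 and 3.45 in RCS cells against 8.93, 9.12 and 8.44 in the rib. The RCS libraries spread widely, from about 3.0 reads in replicate 1 to 6.0 in replicate 2 and 14.0 in replicate 3, yet the highest lay far below the lowest rib library. The Pecam1 difference was -6.53 (SE 0.48, limma adjusted p = 5.13e-06), the largest SE of the 10 genes. Emcn (ENSRNOG00000022910), the gene of endomucin on capillary and venous endothelium, was at 7.16, 7.85 and 6.87 in rib tissue and listed at 0 in all 3 RCS libraries. Summed over the 8 genes other than Egfl7 and Vwf, RCS cells held 31.9, 36.1 and 37.6 normalized counts and rib tissue 3956, 4674 and 3004, so that the RCS mean was 0.907% of the rib mean.

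Egfl7 (ENSRNOG00000019388) was at 8.0, 8.08 and 8.13 in RCS cells against 9.16, 9.19 and 8.51 in the rib. It was thus well detected in the tumour line, at about 468, 521 and 393 reads, and still below every rib library. The difference was -0.88 (SE 0.17), a 1.84-fold lower level in RCS cells (limma adjusted p = 0.0018). It was -0.59 under median scaling and -0.83 under quantile normalization, with the call kept. Egfl8, the closest relative, was at 4.16 ± 0.14 (SD, n = 3) in RCS cells against 6.40 ± 0.07 in the rib. Agpat2, a lipid synthesis gene next to Egfl7, went the other way, at 8.58 ± 0.07 in RCS cells against 7.65 ± 0.49 in the rib, a difference of 0.93 (limma adjusted p = 0.00407). RefSeq models of the 2 genes share 43 bases on the assembly GRCr8, and no source used here says whether counting used strand, so a small number of reads of one could have been given to the other, which was not tested.

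An intron of Egfl7 holds the microRNA miR-126, well known from endothelial cells. The table has an entry for the hairpin rno-mir-126b (symbol Mir3567, ENSRNOG00000035591), which lies on the opposite strand at the same place, and none was found for rno-mir-126a by name. The entry stood at 0, 1.36 and 1.03 in RCS cells against 3.60, 2.71 and 2.74 in the rib, about 14.6 reads at most, and was called lower in RCS cells (-2.22, SE 0.44, limma adjusted p = 0.00187). Reads of this hairpin cannot be told apart here from those of the Egfl7 transcript that spans it, so the value says nothing of mature miRNA. The 3 mature sequences are shown because 2 of them come from the same bases read on opposite strands: rno-miR-126b and rno-miR-126a-5p overlap over 17 positions (RefSeq, GRCr8, seed bases 2 to 8 in capitals).
rno-miR-126b (minus strand): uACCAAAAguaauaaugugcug
rno-miR-126a-5p (plus strand): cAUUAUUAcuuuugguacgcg
rno-miR-126a-3p (plus strand): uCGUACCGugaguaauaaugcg
The 3 seeds differ from each other.

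Vwf (ENSRNOG00000019689) was at 8.82, 8.74 and 8.60 in RCS cells against 9.23, 9.0 and 8.52 in the rib. The lowest rib library lay below all 3 RCS libraries, so that the groups overlapped. The difference was -0.20 (SE 0.17, 95% interval -0.59 to 0.20, limma adjusted p = 0.322). It turned to 0.098 under median scaling, and without rib tissue replicate 3 it was -0.40 and called (limma adjusted p = 0.0166). In reads, the RCS libraries held about 830, 824 and 547 for Vwf, against about 793, 499 and 365 in rib tissue.

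**Figure D2:**
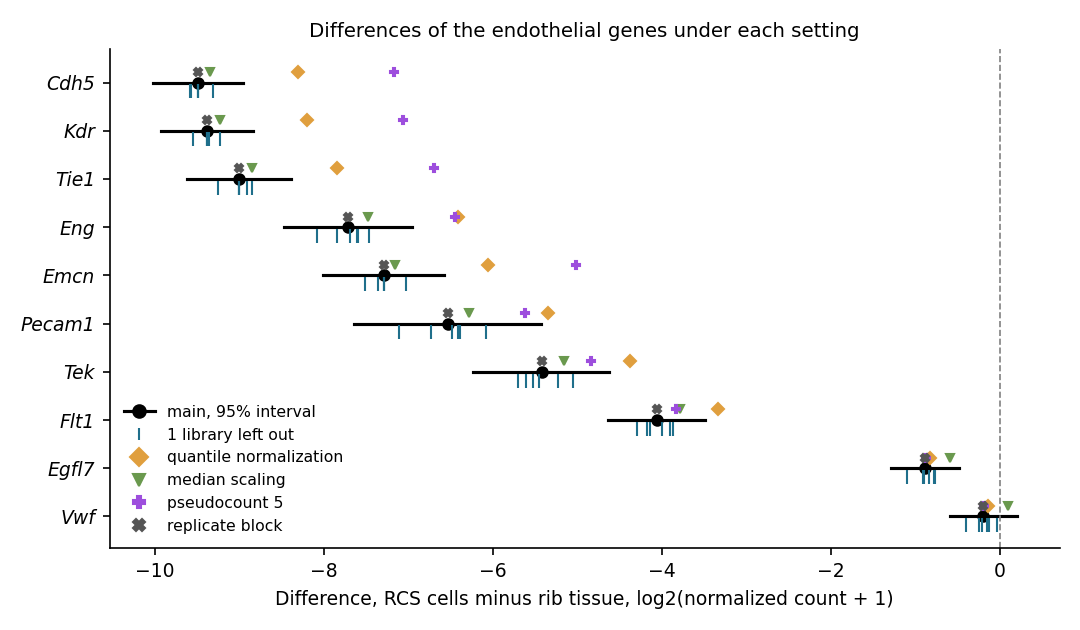
Difference of each of the 10 endothelial genes, RCS cells minus rib tissue on the log2(normalized count + 1) scale, with the 95% interval of the limma fit (black), the 6 values with 1 library left out (ticks) and 4 other settings (coloured markers). Vwf alone has an interval that spans 0, and the sizes for Cdh5, Kdr, Tie1 and Emcn, listed at 0 in RCS cells, move most with the pseudocount. For these 4 genes the RCS libraries show no spread, so the drawn interval does not measure how uncertain the size is.

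The rib libraries differed among themselves in the same direction for the whole set. Replicate 3 had the lowest rib level for 10 of 10 genes and replicate 2 the highest for 8 of 10, against 38.3% and 31.4% of all tested genes. Replicate 3 lay below the mean of replicates 1 and 2 by a median of 0.59, from 0.29 for Cdh5 to 0.75 for Tie1 (values of -0.59, -0.29 and -0.75), where the median over all tested genes was -0.02. It was the lowest for 10 of 10 genes under quantile normalization and 9 of 10 under median scaling, with medians of -0.56 and -0.53. Some lists of other cell types moved with them and others did not. The same median was -0.56 for 15 other endothelial markers, -0.85 for 8 macrophage, -0.43 for 7 pericyte and smooth muscle and -0.82 for 4 skeletal muscle genes, and 0.42 for 8 chondrocyte genes. It was -0.69 for 4 blood stem and mast cell genes and -0.10 for 8 platelet and megakaryocyte genes. For 5 lymphatic endothelial genes it was -0.51, although Pdpn and Reln were highest in replicate 3. Genes of von Willebrand factor storage, cleavage and binding, Vwf aside, stood at 0.05. With 3 libraries no test of this pattern was made.

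**Figure D3:**
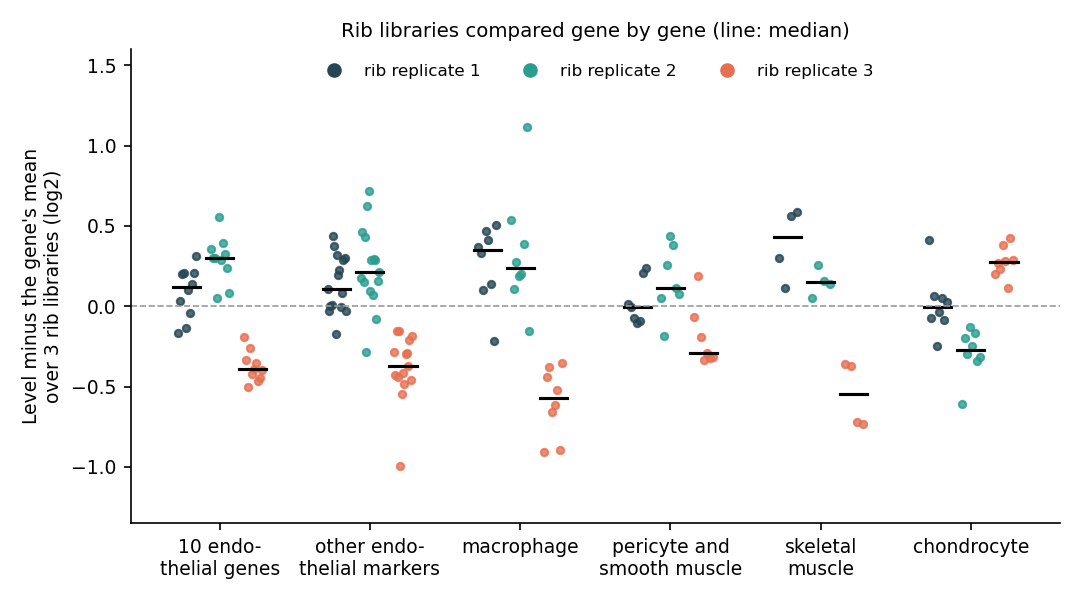
Level of each gene in each rib library minus that gene's mean over the 3 rib libraries (log2), for the 10 endothelial genes and 5 marker lists, 1 point per gene and a line at the median. Replicate 3 lies below the others for all 10 endothelial genes and is the lowest for 0 of the 8 chondrocyte genes.

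Of 8 VEGF family genes other than Kdr and Flt1, 6 were lower in RCS cells, 1 higher and 1 neither (0 higher and 7 lower without rib tissue replicate 3, 1 and 5 under median scaling), with a median difference of -1.58. The counts for this and the following lists stand beside all tested genes, of which 43.6% were lower in RCS cells and 32.9% higher. Genes listed at 0 in every RCS library could not have come out higher in RCS cells, and 2 of these 8 were of this kind. Over all lists of ligands, partners, regulators and other endothelial markers, the 10 genes aside, it was 19 of 77 genes. Vegfa, the main ligand, was at 9.32 ± 0.07 in RCS cells against 9.88 ± 0.20 in the rib, lower by -0.56 (limma adjusted p = 0.00169), a call lost under median scaling (-0.26). Vegfc, a ligand of the lymphatic receptor gene Flt4, was higher in RCS cells, at 6.34 ± 0.23 against 5.28 ± 0.60 (1.06, limma adjusted p = 0.0113). The Vegfc call was lost without rib tissue replicate 1 (0.85) or replicate 3 (0.92). Flt4 itself was listed at 0 in every RCS library, against 7.67 ± 0.46 in the rib. The co-receptor gene Nrp1 was at 8.5 ± 0.05 in RCS cells, against 10.14 ± 0.29.

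All 5 genes of the angiopoietin axis other than Tek and Tie1 were lower in RCS cells (4 of 5 under quantile normalization), with a median of -3.68. The ligand gene Angpt1 was at 3.77 ± 0.40 against 6.95 ± 0.38. Ptprb, the phosphatase that acts on TIE2 and VE-cadherin, was at 3.0 ± 0.11 in RCS cells against 10.20 ± 0.30 in the rib (-7.20, limma adjusted p = 1.95e-08).

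In the endoglin axis, 6 of 10 other genes were lower, 2 higher and 2 neither, and the median was -0.51 (3 higher and 5 lower under median scaling and under quantile normalization). With 43.6% of all tested genes lower and 32.9% higher, these counts say little of the axis. Acvrl1, the receptor ALK1 that works with endoglin, was listed at 0 in every RCS library, against 8.88 ± 0.36 in the rib. Gdf2, the gene of the ALK1 ligand BMP9, was higher in RCS cells, at 9.30, 9.39 and 9.24 against 7.84, 7.99 and 8.51 (1.20, limma adjusted p = 0.000206). The shared receptor genes Bmpr2 and Tgfbr2 were abundant in both groups and lower in RCS cells by -0.75 and -0.52.

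Of 9 junction genes other than Cdh5 and Pecam1, 7 were lower, 0 higher and 2 neither (1 higher and 6 lower under quantile normalization, 1 and 7 under median scaling), with a median of -4.07. Of the 9, 3 were listed at 0 in every RCS library and could not have come out higher. Cldn5, the tight junction claudin of endothelium, was listed at 0 in every RCS library, against 7.12 ± 0.45 in the rib. Jam2 was at 5.28 ± 0.25 against 9.35 ± 0.20, while Jam3, an adhesion gene of many cell types, was at 8.28 ± 0.12 and 8.27 ± 0.08, with a difference of 0.00 (95% interval -0.21 to 0.22) that was 0.30 and called under median scaling. The genes of alpha-, beta- and p120-catenin, which bind or link cadherins, were abundant in both groups. Ctnnb1 was at 11.29 ± 0.15 and 11.17 ± 0.12 and was not called, except as higher in RCS cells under quantile normalization (0.82) and median scaling (0.41). Ctnna1 was higher in RCS cells by 0.31 and Ctnnd1 lower by -0.32, the latter call lost under quantile normalization (-0.036) and median scaling (-0.030).

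Of 7 genes of von Willebrand factor storage, cleavage and binding, 4 were lower in RCS cells, 2 higher and 1 neither (3 higher and 0 neither under quantile normalization). As 43.6% of all tested genes were lower and 32.9% higher, these counts say little of this set. Rab27a, a small GTPase of the storage granules, was listed at 0 in every RCS library, against 6.33 ± 0.04 in the rib. Cd63, a membrane protein of those granules and of lysosomes, was higher in RCS cells by 0.46 (limma adjusted p = 0.00258).

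Among 15 transcription factor genes of endothelial and blood development, 11 were lower, 1 higher and 3 neither, with a median of -2.43 (under median scaling 9 lower and 2 higher, under quantile normalization 10 and 2). Of the 15, 4 were listed at 0 in every RCS library and could not have come out higher. Another 1 was listed at 0 in every rib library and could not have come out lower. Sox18, which acts in vessel and lymphatic development, was listed at 0 in every RCS library, against 6.43 ± 0.45 in the rib. The more widely used ETS factor genes stayed detectable, Ets1 at 7.73 ± 0.10 against 9.51 ± 0.25 and Ets2 at 8.51 ± 0.07 against 8.97 ± 0.16, the Ets2 call being lost under median scaling (-0.17). Etv2, an ETS factor that starts the endothelial programme in embryos, was the one gene higher in RCS cells, at 4.54, 4.32 and 4.67, or about 41.0, 36.6 and 34.4 reads, and was listed at 0 in every rib library. All 15 other endothelial markers were lower in RCS cells (14 of 15 under median scaling), with a median of -6.13 and 6 of them listed at 0 in every RCS library. They ran from the apelin receptor gene Aplnr, listed at 0 in RCS cells and at 8.60 ± 0.29 in rib tissue, to Ramp2, at 7.04 ± 0.12 and 7.55 ± 0.15, whose call was lost under median scaling (-0.21).

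**Figure D4:**
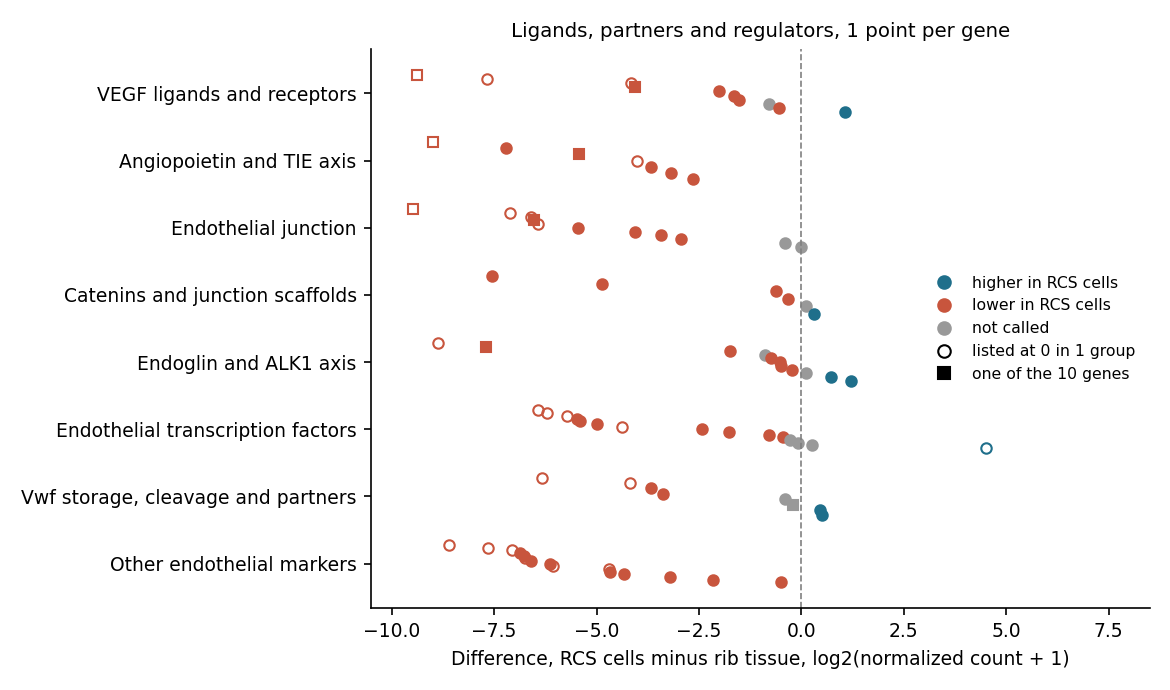
Difference of each tested gene, RCS cells minus rib tissue on the log2(normalized count + 1) scale, in 8 lists of ligands, partners and regulators, coloured by the limma call, with open symbols for genes listed at 0 in 1 group and squares for 8 of the 10 endothelial genes (Egfl7 and Emcn are in none of the 8 lists). The squares other than Vwf lie at -4.06 or lower, Ctnna1, Ctnnb1 and Ctnnd1 lie within 1 unit of 0, and Etv2 is the point far to the right.

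Other cells of a rib can also make some of these 10 genes, so their markers were read in the same libraries. Of 8 platelet and megakaryocyte genes, cells that make Vwf and Pecam1, 6 were listed at 0 in every RCS library, and the list summed to 14.4 to 27.7 normalized counts in the RCS libraries, against 206 to 305 in the rib libraries. Among those listed at 0 in RCS cells were Pf4, Itgb3 and Gp9, and Ppbp and Gp6 were at 0 in all 6 libraries. All 8 macrophage genes were lower in RCS cells, 5 of them listed at 0 in every RCS library, and the list summed to 25.4 to 37.3 normalized counts in the RCS libraries, against 1344 to 2503 in the rib libraries. All 7 pericyte and smooth muscle genes found were lower, among them Notch3 at 5.06 ± 0.25 against 10.73 ± 0.28, with sums of 1308 to 1684 and 9233 to 9820. Most of the RCS sum was Cspg4, at 1574, 1231 and 1220 normalized counts, against 3887, 3424 and 4428 in the rib. Of the 7, 3 were listed at 0 in every RCS library. Of 5 lymphatic endothelial genes 4 were lower and 1 neither, Pdpn standing at 8.96 ± 0.04 against 8.95 ± 0.21, and of 4 blood stem and mast cell genes 2 were lower and 2 neither (1 higher and 2 lower under quantile normalization and median scaling, 3 lower with a pseudocount of 5). The 4 skeletal muscle genes found were all lower, with Acta1 at 2.57 ± 0.63 against 12.42 ± 0.65. The part of these cells in the level of any of the 10 genes was not tested.

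By Euclidean distance over the 6 libraries, the genes closest to the median profile of the 10 were Hspb7, Pde3b, Fabp4, Prss35 and Sntb1, at distances of 0.50 to 1.01 log2 units. Hspb7, for example, was at 1.70, 1.55 and 2.74 in RCS cells against 9.31, 8.97 and 8.32 in the rib. With 2 groups of 3 libraries, this likeness rests mostly on being low in one group and high in the other. It also sets levels of different genes side by side, which gene length affects, and the median profile mixes genes of all the patterns described above.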

How the data were processed

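RNA of 3 RCS cell libraries and 3 rib libraries was sequenced by the authors, and groups and replicate numbers come from the sample titles. The deposited table holds log2 values of 27217 genes. In each library many low values lay on multiples of 1 step, so they were read as log2 of a read count over 1 factor per library, although the table is named for RPKM. The submitters' processing notes list CASAVA 1.8, DESeq and rn5 without saying what each did, and the aligner, the counting and the use of strand were not given in the sources used here. One read was worth 0.519 to 1.03 normalized counts, and a listed 0 allows up to 1.93 reads. Of values up to 10 reads, 38.6% to 54.6% lay within 0.01 of a whole read, so no count model was used.

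Genes reaching a normalized count of 1 in 3 or more libraries (16809) entered a limma fit (version 3.58.1, R 4.3.3) on log2 of normalized count plus 1 (intensity trend, two-sided, Benjamini-Hochberg), after a check on simulated data. Lists were matched by symbol, then by RefSeq gene number (Ecscr, listed as Ecscr-ps1, and Neb), and 3 names had no match. The 10 genes, lists and motifs were chosen with earlier results of these data known. Named genes were the 10, the 2 highest means and the largest called rise and fall of each list, the 2 highest means of each other cell type and the 5 nearest profiles. The entry rno-mir-126b, the low ends of lists and other members given at 0 were named after their values were seen. Promoter and miRNA sequences are from RefSeq (GRCr8). No entry for the promoters of Cdh5, Pecam1, Tek and Vwf was used. Some genes that this rule names are not reported here.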

Additional observations from a re-analysis of the deposited data

How the results depend on the processing

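The alternatives were quantile normalization, median scaling, no filter, a filter of 10 normalized counts in 3 libraries, pseudocounts of 0.1 and 5, no intensity trend, a replicate block and leaving out each library. The count of the 10 endothelial genes lower in RCS cells was 9 in each of them except without rib tissue replicate 3, where it was 10, and 0 were higher. The 4 genes listed at 0 in every RCS library could not have been among the higher. Of all 16809 tested genes, 7324 were lower in the main fit and 7306 without rib tissue replicate 3. The count was 4924 with quantile normalization and 6248 with median scaling. Of 140 values for the 10 genes, 138 kept their direction and side of the threshold. The other 2 were Vwf under median scaling (0.098) and without rib tissue replicate 3, with a range of -0.40 to -0.037 over the libraries left out. Of 602 values for 43 other named genes, 575 did so, 8 lost a call, 8 gained one and 11 changed sign. The changes of sign were Col9a1 under quantile normalization (1.57) and median scaling (0.10), Itga2b under quantile normalization (0.43), and, over the libraries left out, Col9a1 (-0.36 to 0.023), Jam3 (-0.042 to 0.075) and Pdpn (-0.073 to 0.13). The cause was not tested. The share of calls in the higher direction was 43.0%, rising to 61.9% with quantile normalization and 53.3% with median scaling, which moved the median gene by 0.47 and 0.29 towards RCS cells. Differences of genes listed at 0 in a group depend on the pseudocount by construction, Cdh5 ranging from -12.81 to -7.17. Same-numbered libraries did not deviate together (correlations of 0.064, -0.076 and 0.047), so the numbers were not taken as pairs, and with the replicate block 9 of the 10 genes were lower, Vwf differing by -0.20. Depth limits what can be said of Eng, Pecam1 and Tek in RCS cells, at 16.0 reads or fewer in each library.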
